A study of Arabidopsis thaliana with 9 samples.

Results

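LEAFY (LFY) summits that fell inside protein-coding genes were examined. A summit is the base of a chromatin immunoprecipitation (ChIP-seq) peak with the highest pileup of reads. Of 1177 peaks on the 5 nuclear chromosomes, 245 had their summit between the annotated start and end of a protein-coding gene (20.8%) and 932 did not. The 245 summits lay in 237 genes, and were split by the annotation at the summit base into 95 in a 5′ UTR, 45 in a coding exon, 42 in an intron and 62 in a 3′ UTR. The remaining summit, in AT3G07350, lay in the gene body but outside every annotated mRNA (fold enrichment 7.78 on 186 dex reads). Within the list of peaks, members were chosen by position alone, so no further cut on height, width or sequence entered the choice. Every peak of the list had already passed the authors' cut at a −log10 q-value of 10.

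The study asked where LFY associates with chromatin in root-derived callus of Arabidopsis thaliana. All samples carried 35S:LFY-GR in the accession Landsberg erecta (L.er) with no further mutation. Roots of seedlings aged 3 weeks had been kept on callus inducing medium (CIM) for 5 days. The 9 samples formed 3 groups of 3: input chromatin without antibody and without treatment, LFY ChIP after 1 h of mock treatment, and LFY ChIP after 1 h of 5 µM dexamethasone (dex). The treatment time is that of the sample labels, and the text on the whole series gives 24 h. The 35S promoter drives the fusion protein in most cells, where LFY is not normally made, and the glucocorticoid receptor (GR) domain holds it outside the nucleus until dex is added. The mock samples carried the transgene too. The peaks analysed had been called by the authors on the 3 dex libraries pooled over the 3 mock libraries pooled, so every summit has 1 value, no value has an error between replicates, and all intervals below cover counting error only. The inputs did not enter the peaks. Expression was not part of these files, so the identity of the callus could not be checked against marker genes.

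LFY is a plant-specific transcription factor that commits primordia to floral fate and activates floral homeotic genes, first among them the MADS-box gene AP1. It can bind DNA as a monomer or as a dimer, and the recognition sequence of the dimer is a palindrome with the core CCANTGG, flanked by bases that add to affinity. Transcription factors of plants are found mostly upstream of genes, but known regulatory sites also lie within genes, such as those in the large intron of the floral gene AG.

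An exact core lay within 50 bp of 24 of the 245 summits (9.80%), beside 116 of all 1177 nuclear summits (9.86%). A close core was thus about as frequent inside genes as over the whole list. These 24 sites are shown because the known recognition sequence lies closest to the summit in them. Each line gives the gene, the position of the stretch on TAIR10, the strand of the gene, the distance from summit to core and 19 bases read 5′ to 3′ on the strand of the gene, with the core in capitals. The sequences are those of RefSeq for TAIR10.1, which is the Columbia accession, so a base that differs in L.er would be shown as in Columbia. The first set had its summit in a 5′ UTR.
RGL3 (chr5:5766198-5766216, minus strand, 3 bp): gacagtCCATTGGaccatt
IAA16 (chr3:1290770-1290788, minus strand, 5 bp): ctttgcCCACTGGcttggc
AT2G21300 (chr2:9119868-9119886, minus strand, 6 bp): caatgcCCATTGGtccctc
MAML-4 (chr1:6369151-6369169, plus strand, 7 bp): aattacCCAATGGtcgtcg
ADS2 (chr2:13373994-13374012, minus strand, 12 bp): tacaagCCAGTGGgtaatt
AT3G57800 (chr3:21411783-21411801, minus strand, 19 bp): taatatCCATTGGgatcca
AT1G28310 (chr1:9913643-9913661, minus strand, 25 bp): accaatCCACTGGtctctc
PLC9 (chr3:17387997-17388015, plus strand, 26 bp): aattatCCATTGGatctat
AT1G55690 (chr1:20812964-20812982, minus strand, 29 bp): taaggaCCATTGGacccaa
GAE6 (chr3:8603221-8603239, plus strand, 35 bp): aagtctCCAATGGagaaca

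The set with the summit in a coding exon is shown next, since such a core is part of the sequence that encodes the protein. It includes the auxin biosynthesis gene YUC4, the arogenate dehydratase gene ADT5 and AT5G09460, which encodes a bHLH protein. AT5G28491 is a gene model of only 126 bp with no known product, and the peak over it was wider than the gene.
NF-YC4 (chr5:25417075-25417093, minus strand, 4 bp): aaagatCCAATGGacaata
AT1G75090 (chr1:28189238-28189256, minus strand, 12 bp): gagatgCCACTGGatcaca
AT5G09460 (chr5:2944434-2944452, minus strand, 12 bp): gaataaCCATTGGtgaaaa
ADT5 (chr5:7525869-7525887, plus strand, 17 bp): agttacCCAATGGatatga
AT5G28491 (chr5:10455710-10455728, minus strand, 21 bp): ctttaaCCATTGGtcacac
YUC4 (chr5:3611501-3611519, minus strand, 23 bp): aacagaCCAATGGatgaaa
SETH6 (chr2:19599970-19599988, plus strand, 31 bp): taagatCCAATGGgtgttg
AT3G05220 (chr3:1490821-1490839, plus strand, 50 bp): atgggtCCAATGGgtggcc

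Only 2 intronic summits had a core this close, in the sulfate transporter gene SULTR3;5 and in BRXL4, a relative of BREVIS RADIX.
SULTR3;5 (chr5:6615123-6615141, minus strand, 30 bp): ttgttaCCAGTGGctaatt
BRXL4 (chr5:6950665-6950683, plus strand, 39 bp): tttggtCCATTGGatctgg

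The last set had its summit in a 3′ UTR. The core at AT5G09850, which encodes a protein of the TFIIS family of transcription elongation factors, was centred on the summit base itself.
AT5G09850 (chr5:3062864-3062882, minus strand, 0 bp): gtaggtCCATTGGttgatg
AT1G67750 (chr1:25403354-25403372, plus strand, 4 bp): tttggaCCAATGGgtttct
PTAC6 (chr1:7570904-7570922, minus strand, 14 bp): ttggttCCATTGGcccatt
PDE135 (chr2:11277547-11277565, plus strand, 49 bp): ttgagtCCAGTGGatacaa

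Each side of the core was read on the strand where it lies 5′ of the core, which gives 48 sides for 24 cores. Bases printed to the right of the core were therefore complemented. Read in this way, the second base out from the core was A in 23 and G in 18, and rarely T (4) or C (3). The base next to the core was most often T (22 of 48). The centre of the core was A or T in 18 sites and C or G in 6. Both sides of a palindrome are not independent, and these counts are a description. The core itself, as opposed to the summit, lay in a 5′ UTR at 9 of the 24 sites, in a coding exon at 9, in a 3′ UTR at 4 and in an intron at 2.

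The 4 classes differed widely in how densely they held summits. Density was 16.3 summits per Mb of 5′ UTR (95% exact Poisson interval 13.2 to 19.9), close to the 17.0 per Mb (16.0 to 18.2) of all nuclear DNA outside protein-coding gene bodies. All bases were counted, 54.7 Mb outside gene bodies, whether or not reads can be mapped to them uniquely. Densities per mappable base were not computed, so the likeness of 5′ UTRs and DNA outside genes holds per annotated base only. It was 9.06 per Mb in 3′ UTRs (6.95 to 11.6), 2.32 in introns (1.67 to 3.14) and 1.34 in coding exons (0.975 to 1.79). The intervals of 5′ UTRs and 3′ UTRs did not overlap, and neither overlapped those of introns or coding exons. The intervals of introns and coding exons overlapped. Coding exons made up 52.2% of all gene-body bases and held 18.4% of the summits inside genes, whereas 5′ UTRs made up 9.06% and held 38.8%. Over whole gene bodies the density was 3.80 per Mb (3.34 to 4.31), between 2.74 on chromosome 4 and 4.50 on chromosome 2, with overlapping intervals on all 5 chromosomes.

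**Figure D1:**
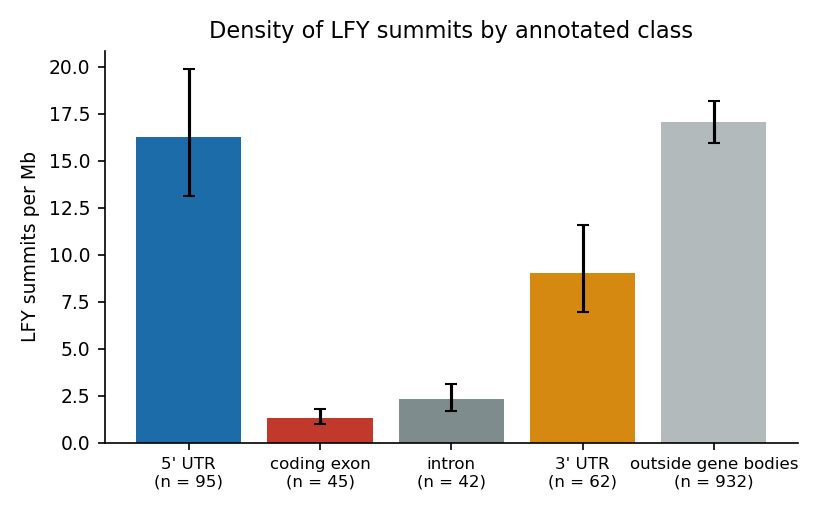
LFY summits per Mb of each annotated class of protein-coding genes and of nuclear DNA outside gene bodies. Bars give the density, whiskers its 95% exact Poisson interval and n the number of summits. All bases were counted, whether or not reads can be mapped to them uniquely. On that count the 5′ UTR bar (16.3 per Mb) stands level with DNA outside genes (17.0), and the coding exon bar (1.34) is the lowest.

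Summits inside genes gathered at the ends. In the first 100 bp of a gene lay 46 summits, or 16.8 per Mb of such sequence. Between 100 and 250 bp the density was 10.8 per Mb (44 summits), and between 250 and 500 bp it was 2.40 (16 summits). It was lowest between 500 and 1000 bp, with 1.62 per Mb (20 summits). Further in it was 2.85 between 1000 and 2000 bp and 3.16 (65 summits) beyond 2000 bp. Counted back from the gene end, the last 100 bp held 7.65 per Mb (21 summits) and the stretch from 100 to 250 bp held 7.09 (29 summits). Density was 3.74 from 250 to 500 bp and lowest from 500 to 1000 bp, with 1.53 (19 summits). It was higher again further from the end, 3.00 between 1000 and 2000 bp and 4.57 (94 summits) beyond 2000 bp. Of the 95 summits in a 5′ UTR, 44 lay within 100 bp of the gene start and 78 within 250 bp, with a median of 106 bp. Of the 62 in a 3′ UTR, 19 lay within 100 bp of the gene end and 44 within 250 bp, with a median of 180.5 bp. In all, 67 of the 245 lay less than 100 bp from an edge of their gene, and without the first and last 100 bp of each gene the share of nuclear summits inside genes was 15.1% instead of 20.8%.

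**Figure D2:**
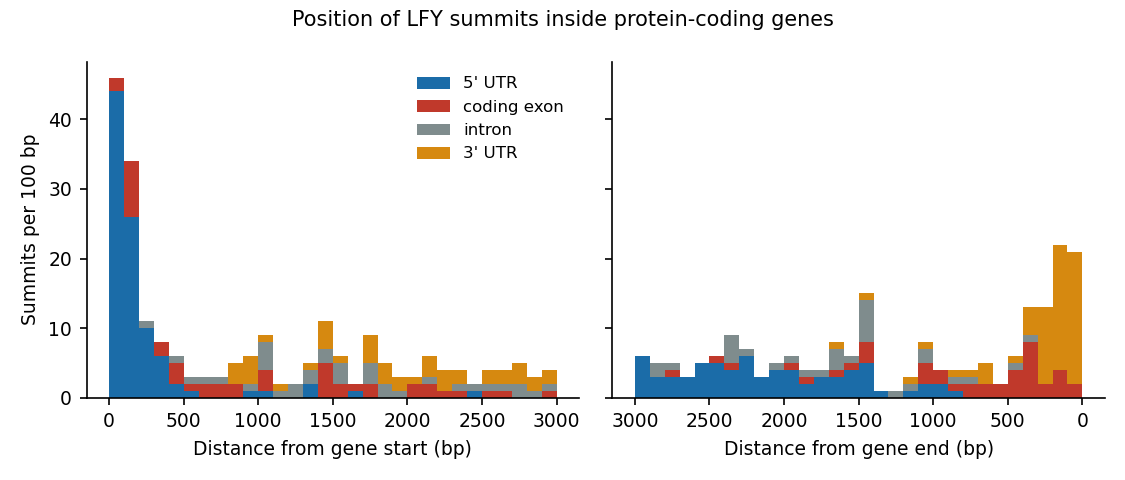
Number of LFY summits inside protein-coding genes in bins of 100 bp, by distance from the gene start (left) and from the gene end (right), up to 3 kb. Colours give the class of the summit; the summit outside every mRNA is not drawn. The first bin after the start holds 46 summits, 44 of them in a 5′ UTR, and counts rise again towards the gene end in 3′ UTRs.

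Among the 95 summits in 5′ UTRs, AT3G52470, annotated as a late embryogenesis abundant (LEA) hydroxyproline-rich glycoprotein family protein, had the highest fold enrichment. Fold enrichment is the authors' ratio of the pooled dex pileup to the local background in the pooled mock libraries. Its fold was 9.91, from 263 dex reads over 20 mock reads, at a summit 46 bp from the gene start (chromosome 3, 19450552). After scaling to equal depth the dex reads were 10.4 times the mock reads (95% exact interval 6.57 to 17.2). AT1G55690, which encodes a Sec14p-like phosphatidylinositol transfer protein, had a fold of 8.60 on 359 dex reads over 32 mock reads (scaled ratio 8.84, 6.15 to 13.1) and the core shown above at 29 bp. PYL6, a receptor of abscisic acid, had a fold of 8.56, from 227 dex reads. The bHLH gene AT1G72210 had a fold of 8.55 (205 dex reads), and CLE17, which encodes a signalling peptide related to CLAVATA3, had a fold of 8.46 on 235 dex reads over 21 mock reads. The scaled intervals of AT3G52470, AT1G55690, AT1G72210 (5.54 to 15.4) and CLE17 (5.64 to 14.5) overlapped. The next in order, CRN, which encodes the kinase-related protein CORYNE of the CLAVATA pathway, had a fold of 7.36 on 410 dex reads over 43 mock reads.

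The 5′ UTR summits with a close core were mostly of lower fold than these. IAA16, which encodes an Aux/IAA repressor of auxin responses, had 310 dex reads over 44 mock reads, a fold of 5.45 and a core 5 bp from the summit. The kinesin-related gene AT2G21300 had 206 dex reads over 29 mock reads and a core at 6 bp. RGL3, one of the DELLA repressors of gibberellin signalling, had a core at 3 bp but only 76 dex reads and a fold of 3.21. GAE6, an epimerase gene of pectin precursor synthesis, had a fold of 5.95 (142 dex reads), and the fatty acid desaturase gene ADS2 had 5.08 on 121, at a summit 3 bp into the gene. AT1G28310, a Dof zinc finger gene, was the only one of the 10 whose summit is placed in an intron by the transcript with the longest coding sequence, and the AT3G57800 summit lies outside that transcript. ACR7, an ACT domain repeat gene followed in the study, had a 5′ UTR summit 4 bp into the gene with 93 dex reads, and a fold of 3.91, and the window of 150 bp held no exact core.

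In coding exons, the highest fold was that of AT1G75090, a DNA glycosylase gene, at 8.22. Its 249 dex reads stood over 23 mock reads (scaled ratio 8.53, 5.56 to 13.7), with a core 12 bp away and the summit 506 bp from the gene start. BRG3, which encodes a BOI-related RING ubiquitin ligase, had a fold of 7.47 on 283 dex reads over 29 mock reads, without a core. AT5G28491 had a fold of 7.43 on 291 dex reads over 30 mock reads (scaled ratio 7.64, 5.24 to 11.5) and a core at 21 bp. Its summit also lay 17 bp upstream of LSH1, a gene of the ALOG family of developmental regulators, so the class of this summit rests on a very short neighbouring gene model. The F-box gene AT4G33160 had a fold of 7.26 on 189 dex reads. YUC4, a flavin monooxygenase gene of auxin biosynthesis, had a fold of 7.18 on 190 dex reads over 20 mock reads (scaled ratio 7.48, 4.71 to 12.5), with its core 23 bp away and the summit 286 bp from the gene end. These 5 scaled values, where defined, had overlapping intervals. ADT4 and ADT5, which encode arogenate dehydratases of phenylalanine synthesis, both had a coding exon summit, with folds of 5.76 and 4.04. NF-YC4, a subunit gene of the CCAAT-binding NF-Y complex, had a core 4 bp from the summit but a fold of only 2.79, on 151 dex reads over a raised mock background of 42 reads.

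In introns, AT1G49225, an uncharacterized gene, had the highest fold, 9.06, with 217 dex reads. Its mock background was at the genome-wide floor of 17.97 reads per summit window, the value the peak caller uses where local mock reads are fewer. It was followed by the ascorbate oxidase gene AT5G21105, with a fold of 6.78 on 188 dex reads over 21 mock reads, and by ORP2A, an oxysterol-binding protein gene, with 6.57 on 157 dex reads. LecRK-I.9, which encodes the lectin receptor kinase for extracellular ATP, had 6.02 on 165 dex reads, and AT1G71710, annotated as DNase I-like, had 5.70 on 136. None of these 5 had an exact core within 150 bp. AP1 had its intronic summit in intron 1, 1334 bp from the gene start, and its fold was 5.13 (127 dex reads), without an exact core in the window of 150 bp. Another summit, 1498 bp from this one, lay upstream of AP1 and so is not among the summits inside genes. The LFY binding site that the study tested at AP1 is in the regulatory region of the gene, not in this intron. WRI1, an AP2-type regulator of oil synthesis, had a summit in intron 6 with a fold of 5.52 on 160 dex reads over 22 mock reads.

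The introns that held a summit were long. Their median length was 981.5 bp (range 67 to 4873), against a median of 100 bp over all 119557 introns, and 207 bp when each base of an intron is counted once. Of the 42 intronic summits, 32 lay in introns of at least 500 bp, which hold 20.2% of intron bases, and 21 lay in introns of at least 1000 bp, which hold 6.50%. In a first intron lay 16 of 42, or 38.1% (95% Wilson interval 25 to 53.2), beside 26.4% of intron bases in first introns, a share that lies inside the interval. Some lay in short introns, among them the SULTR3;5 summit with a core (98 bp) and those of AT1G54730 (80 bp) and AT1G25530 (67 bp).

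In 3′ UTRs lay the highest fold of all 245 summits, 14.2 at AT3G63240, another gene annotated as DNase I-like (chromosome 3, 23364035, 163 bp from the gene end). It rested on 412 dex reads over 22 mock reads, a scaled ratio of 14.8 (9.61 to 23.8), and its nearest core lay 106 bp away. The receptor kinase gene AT4G36180 followed with 9.76 on 259 dex reads over 20 mock reads (scaled ratio 10.2, 6.47 to 17.0). CYP709B2, a cytochrome P450 gene, had a fold of 9.11 and the most dex reads of any member, 519 over 44 mock reads (scaled ratio 9.29, 6.82 to 12.95). The interval of AT3G63240 overlapped those of both. AT2G26520, an uncharacterized gene, had 7.11 on 170 dex reads. PIN4, an auxin efflux carrier gene, had 6.95 on 166 dex reads and a core 54 bp away, but this base is 3′ UTR only in a shorter transcript and intron in the one with the longest coding sequence. The 4 sites with a core within 50 bp had lower folds: PDE135, a xanthine/uracil permease gene, had 4.60, the pectate lyase gene AT1G67750 had 4.54, AT5G09850 had 3.50 and PTAC6, a gene for plastid transcription, had 3.10.

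Peak height was not shown to differ between summits inside and outside genes. The median fold inside was 3.998 (quartiles 3.29 and 5.04, range 2.37 to 14.2), and that of the 932 other summits was 4.07 (quartiles 3.42 and 5.33, highest 18.6). A fold above the median of all nuclear peaks, found at 49.6% of nuclear summits, was found at 115 of 245 summits inside genes, or 46.9% (95% Wilson interval 40.8 to 53.2), and at 469 of 932 others, or 50.3% (47.1 to 53.5). The difference of -3.38 percentage points did not pass the threshold (Fisher's exact test, two-sided, adjusted p = 0.722 over 14 tests). When neighbouring summits less than 3 kb apart were reduced to the one of highest fold, it was -9.12 (91 of 212 against 382 of 734, Fisher's exact test, adjusted p = 0.0826). That alternative keeps summits by fold, the measure tested, so it cannot decide whether the difference is larger. With dex reads in place of fold the difference was 2.01. Class medians were 3.96 in 5′ UTRs, 3.997 in coding exons, 4.16 in introns and 3.95 in 3′ UTRs. High folds made up 46 of 95, 19 of 45, 22 of 42 and 27 of 62 in the same order, and no class passed the threshold against the other summits inside genes (Fisher's exact tests, smallest adjusted p = 0.722). Peaks wider than the median, 50% of nuclear peaks, were 119 of 245 inside genes and 469 of 932 elsewhere (Fisher's exact test, adjusted p = 0.778). These tests count summits as independent.

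**Figure D3:**
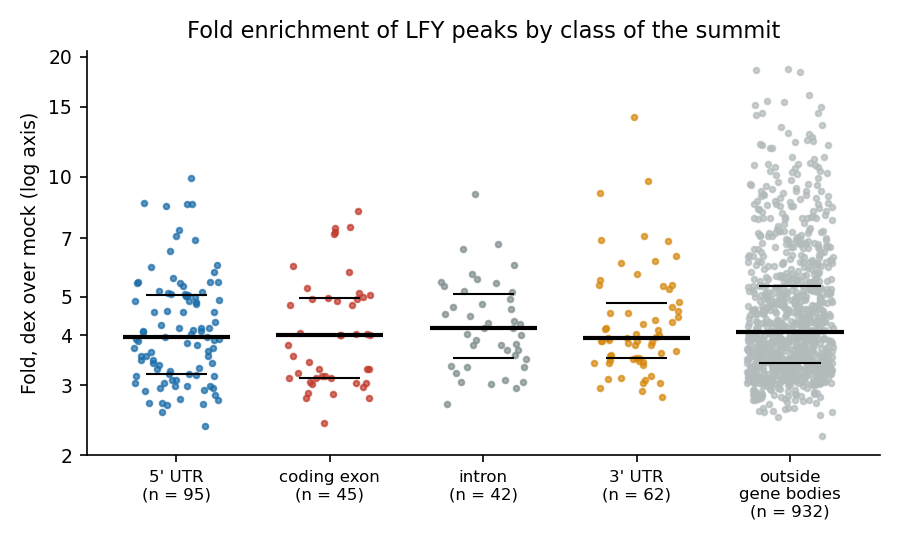
Fold enrichment of pooled dex over pooled mock (log axis) for each LFY summit, by class. Points are summits, thick lines medians and thin lines quartiles. Medians run from 3.95 to 4.16 in the 4 classes inside genes and 4.07 outside, and the point at 14.2 is AT3G63240.

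The mock background was more often raised inside genes. It stood above the genome-wide floor at 192 of 245 summits inside genes, or 78.4% (95% Wilson interval 72.8 to 83.1), beside 68.1% of all nuclear summits and 609 of 932 summits elsewhere, or 65.3% (62.2 to 68.3). The difference of 13.02 percentage points passed the threshold (Fisher's exact test, two-sided, p = 8.19e-05, adjusted p = 0.000573). It was 7.24 and no longer passed among peaks with a −log10 q-value of at least 20 (Fisher's exact test, adjusted p = 0.444). In reads the difference was small, with a median of 20.2 mock reads inside genes and 19 elsewhere. At cuts chosen after seeing the data, at least 25 reads (23.4% of nuclear summits) or at least 30 reads, the difference was 4.51 and 3.81 percentage points and did not pass (Fisher's exact tests, adjusted p = 0.542 and 0.465). By class the median was 21 mock reads in 5′ UTRs, 20.3 in coding exons, 20 in 3′ UTRs and 19.02 in introns. The 380 summits outside gene bodies and up to 1 kb upstream of a gene start were close to those inside genes. Their median was 20 mock reads (quartiles 17.98 and 25), beside quartiles of 18.2 and 25 inside genes. The share above the floor was not tested against them. The highest mock backgrounds inside genes were 62 reads at NDL3, an N-MYC downregulated-like gene, 49 at CID11, which encodes a protein that binds the poly(A)-binding protein, and 47 at the uncharacterized gene AT3G52230. Their dex reads were 235, 298 and 313, and their folds 2.95, 4.72 and 5.16. Dex reads per summit had a median of 116 inside genes (quartiles 93 and 154, range 72 to 519) and 113 elsewhere.

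**Figure D4:**
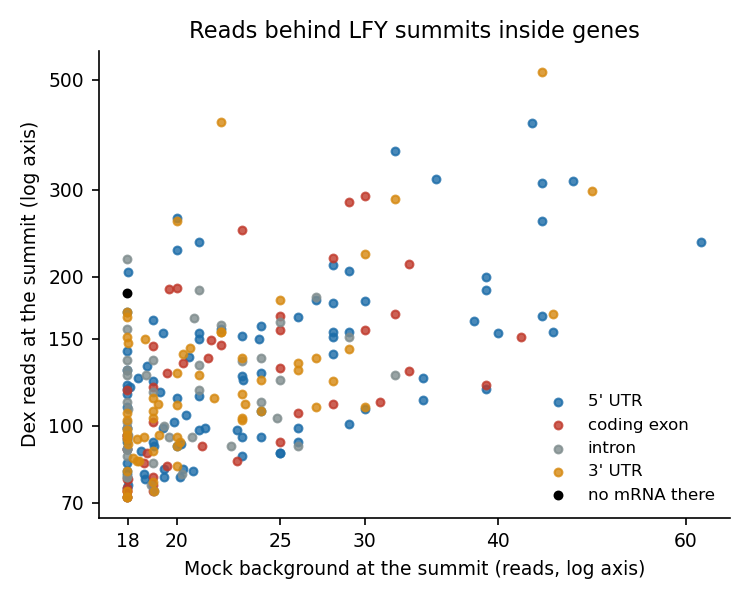
Dex reads against mock background for the 245 summits inside genes, both on log axes, coloured by class. The column of points at the left edge sits at the genome-wide floor of 17.97 mock reads. The point at 62 mock reads is NDL3, and the highest, at 519 dex reads, is CYP709B2.

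To ask whether summits inside genes carry the LFY core, windows of 150 bp on either side of each summit were compared with windows of equal width centred 1000 bp away. An exact CCANTGG was centred in the window at 33 of 245 summits, or 13.5% (95% Wilson interval 9.75 to 18.3), beside 13.1% of all nuclear summits. In the left windows it was found at 8 of 245, or 3.27% (1.66 to 6.31), and in the right windows also at 8. The difference of 10.2 percentage points passed the threshold, with 32 pairs having the core only at the summit and 7 only in the left window (exact binomial test on discordant pairs, two-sided, p = 7.03e-05, adjusted p = 0.000573). Summits outside gene bodies had a core at 121 of 932, or 12.98% (10.98 to 15.3), which differed from summits inside by 0.49 percentage points (Fisher's exact test, two-sided, adjusted p = 0.832). The share was 16.8% (13.4 to 20.9) at the 380 summits outside gene bodies and up to 1 kb upstream of a gene start. With up to 1 mismatch the core was present at 191 of 245 summits inside genes, or 78.0% (72.4 to 82.7), beside 73.6% of all nuclear summits and 56.7% (50.5 to 62.8) of the left windows.

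The core was found in all 4 classes. It was present at 9 of 45 coding exon summits, or 20% (10.9 to 33.8), at 10 of 62 in 3′ UTRs, or 16.1% (9.004 to 27.2), at 11 of 95 in 5′ UTRs, or 11.6% (6.59 to 19.6), and at 3 of 42 in introns, or 7.14% (2.46 to 19.01). Left windows of the same classes had 1, 3, 2 and 2 cores. No class passed the threshold against the other summits inside genes (Fisher's exact tests, two-sided, smallest adjusted p = 0.542, for coding exons). Bases of coding exons are richer in G and C, 44.0% against 32.2% in introns, and windows of 201 bp at the summits had medians of 41.8% and 33.6%. The part of base composition in these shares was not tested. Where the window held 1 core only (31 summits), it was centred a median of 26 bp from the summit, and 15 of these 31 cores (48.4%) lay within 25 bp.

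**Figure D5:**
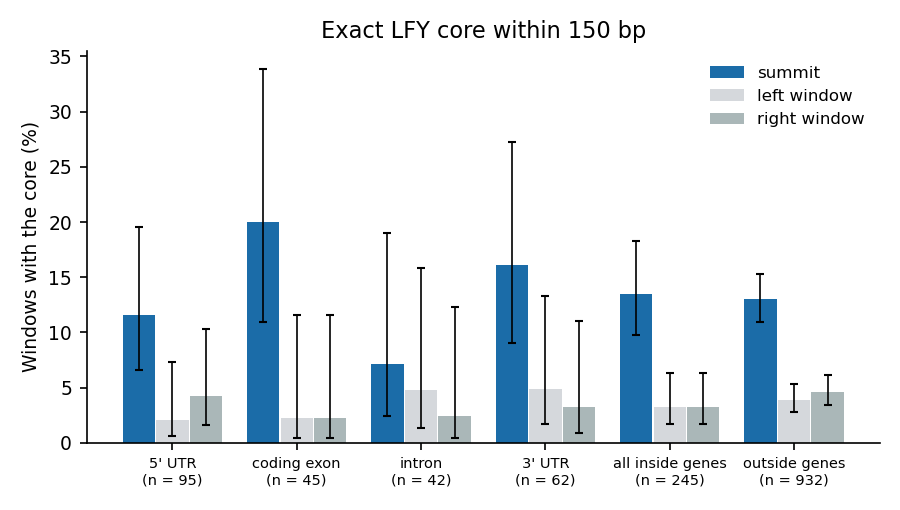
Share of windows with an exact CCANTGG core centred within 150 bp, at LFY summits and in windows 1000 bp to the left and right, by class. Bars give the percentage, whiskers its 95% Wilson interval and n the number of summits. All summits inside genes reach 13.5% and those outside 12.98%, both above their flanking windows, and the intervals of the 4 classes overlap.

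Summits inside genes were grouped less than others. Another nuclear summit lay within 3 kb of 34.7% of all nuclear summits, of 63 of 245 summits inside genes (25.7%, 20.6 to 31.5) and of 345 of 932 elsewhere (37.0%, 34.0 to 40.2). This difference of -11.3 percentage points passed the threshold (Fisher's exact test, two-sided, p = 0.000888, adjusted p = 0.00415). It was -6.39 among peaks with a −log10 q-value of at least 20 and -3.27 for a distance of 1 kb, and passed in neither (Fisher's exact tests, adjusted p = 0.542 and 0.626). The nearest other summit lay a median of 13121 bp from summits inside genes (lower quartile 2889). For the 380 summits outside gene bodies and up to 1 kb upstream of a gene start it was 16099.5 bp (lower quartile 2413.75). For all 932 others it was 8118 bp (lower quartile 1533.25). Summits inside genes were not tested against the 380. Of the 237 genes, 41 also had a summit up to 3 kb upstream and 35 had one up to 3 kb past the end. Both were found at 6 of these genes and neither at 167. The same counts over all protein-coding genes are not given here, so these numbers show neither an excess nor a lack. With 3 summits upstream beside the 1 inside, AT2G26520, the Aux/IAA gene IAA13, the WRKY transcription factor gene WRKY23 and the homeobox gene HB40 had the most upstream. WRKY23 had 1 more past its end, 5 in all. The summits inside were in the 3′ UTR at AT2G26520 (fold 7.11), in the 5′ UTR at IAA13 (2.71) and WRKY23 (4.18), and in intron 1 of HB40 (4.16).

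Within their own bodies, 8 genes held 2 summits. The summit of AT3G52470 with the higher fold was the 5′ UTR summit described above, and 806 bp away lay a coding exon summit with a fold of 3.29 on 78 dex reads. PIN4 had its summits 737 bp apart, with folds of 6.95 and 3.46, and ORP2A had both in intron 1, 361 bp apart, with folds of 6.57 and 4.03. SUE4, annotated as an alpha/beta hydrolase related protein, had 5.96 in a coding exon and 4.54 in the 3′ UTR. AT3G05220, a heavy metal-associated domain gene, had 4.77 and 4.12 at summits 549 bp apart, the first with a core at 50 bp. CYCJ18, a cyclin gene, had 3.999 in an intron and 4.45 in the 3′ UTR, and the bHLH gene AT3G57800 had 4.81 in an intron and 3.84 in a 5′ UTR. SAC51, a bHLH gene whose leader holds upstream open reading frames and which acts in thermospermine signalling, had 4.88 in the 5′ UTR on 166 dex reads over 26 mock reads and 3.29 in a coding exon on 91. AT5G09460, of the same small family, had its coding exon summit with a core at 12 bp.

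A summit inside a gene can lie close to the start of its neighbour. Up to 1 kb upstream of the start of another protein-coding gene lay 42 of 245 summits, or 17.1% (95% Wilson interval 12.9 to 22.4), beside 13.5% of all gene-body bases, a share inside the interval. For summits in 3′ UTRs it was 20 of 62, or 32.3% (22.0 to 44.6), beside 30.3% of 3′ UTR bases. For coding exons it was 7 of 45 beside 11.8% of bases, for 5′ UTRs 12 of 95 beside 16.7% and for introns 3 of 42 beside 9.34%. The closest case was AT4G34150, whose 3′ UTR summit (fold 2.96) lay 1 bp upstream of CYCD3;1, a D-type cyclin gene. Next was AT5G28491 at LSH1, described above. Up to 3 kb upstream of another gene lay 108 of 245 (44.1%, 38.0 to 50.3), beside 51.5% of gene-body bases. In addition, 3 summits lay inside 2 overlapping genes, namely AT3G47341, GSTF2 and NF-YC4, and each was counted once.

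Over all 27444 protein-coding genes, 0.864% held a summit. Of 31 genes matched by symbol to a list of floral regulators, 2 did, AP1 and ANT, a gene for organ growth, which had a coding exon summit (fold 3.42, 84 dex reads) without an exact core in the window of 150 bp. Counted as floral regulators were 2 genes that share the symbols SEP1 and SEP2 but encode other proteins, and FUL, LMI1 and SOC1 are named otherwise in this annotation and were not matched. Inside LFY, AG, AP2, AP3, PI, CAL, CRC, FD, FLC, FT, TSF, TFL1, UFO, SVP, AGL6, AGL24, MYB17, SPL3, SPL9, STK, SUP, SEP1, SEP2, SEP3, SEP4, SHP1 and SHP2 lay no summit, and likewise none inside the housekeeping gene ACT7, the negative control locus of the study. A gene without a summit is below the q-value threshold of the list, and its reads are not known.

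Among hormone genes, 4 of 98 auxin genes held a summit (PIN4, IAA13, IAA16 and YUC4) (95% Wilson interval 1.60 to 10.03%). For cytokinin it was 2 of 74, namely IPT5, a biosynthesis gene (3′ UTR, fold 3.42), and CKX5, an oxidase gene of cytokinin breakdown (intron, fold 2.69). For gibberellin it was RGL3, 1 of 28. Of the transcription factor lists, bHLH genes had the largest number of genes with a summit, 6 of 132 (2.10 to 9.56%), 3 of them in a 5′ UTR only. SAC51, also a bHLH gene, was missed by the words searched and is not among the 6. MYB genes had 2 of 150, the related flavonol regulators MYB11 and MYB12, both with a coding exon summit near the gene end (304 and 359 bp from it) and folds of 3.13 and 2.86. WRKY genes had 1 of 67 (WRKY23), homeobox genes 1 of 112 (HB40), and the genes with a GRF symbol, which growth-regulating factors share with other proteins, 1 of 17 (GRF3, 5′ UTR, fold 3.41). ACT domain repeat genes had 1 of 11 (ACR7). Of other large groups, receptor-like kinases had 4 of 331, RING and U-box proteins 6 of 536 and F-box proteins 2 of 652. Ribosomal proteins had 1 of 344 and genes matched by the words for transporters 6 of 463. Those words missed the efflux carrier gene PIN4, the MATE efflux gene AT3G21690 and the cation/H+ exchanger gene CHX20, among others. They did match AT5G66600, annotated as a putative electron transporter, so 6 is not a count of all transporters. For photosystem and light-harvesting proteins it was 0 of 51, which allows a share of up to 7.005% (upper end of the 95% Wilson interval). The words searched for NAC and AP2/ERF factors matched 80 and 70 genes with 0 summits but missed members whose products are named in other words. Wider words, chosen after seeing the data, gave 3 of 107 NAC genes (ATAF1 and NAC014 in 5′ UTRs, and the root cap regulator SMB in an intron) and 2 of 84 AP2/ERF genes (WRI1 and ANT). These counts were not tested, and lists were matched by symbol or product words.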

How the data were processed

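ChIP-seq with anti-LFY antibodies was analysed from the deposited list of 1181 peaks. As the study's methods and the labels state, the authors trimmed reads (Trimmomatic), mapped them to TAIR10 (Bowtie2), kept unique reads and called peaks with MACS2 on pooled dex over pooled mock libraries. Tool versions named in the submitters' processing notes include Trimmomatic 0.36, Bowtie2 2.3.1 and MACS2 2.1.1.20160309. The deposited fold is a ratio, (pileup + 1) / (background + 1). The deposited −log10 p-value and −log10 q-value belong to the summit, and the smallest q was 10.04 on that scale. The deposited score, 10 times the −log10 q-value, was not used.

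Dex reads and mock background were recovered by solving fold and p-value under the Poisson model of MACS2. All 1181 peaks were solved, 3 of them with 2 possible solutions, among them the members RBL12 and AT5G57570. On simulated data 400 of 400 peaks returned the true reads. The floor of 17.97 implies 13.2 M mock and 16.7 M dex reads after pooling (scale 0.788). MACS2 takes the highest of several background estimates, which raises it. Reads carry no molecular identifiers. Peak coordinates were used as deposited, counted from 1.

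Genes and sequence came from RefSeq TAIR10.1. A base in several transcripts was classed in the order coding exon, 5′ UTR, 3′ UTR, intron; 15 summits lay outside the transcript with the longest coding sequence and 12 had another class there. CCANTGG was searched on both strands, which a palindrome makes equal, and 200 of 200 planted cores were found. P-values (Fisher's exact, exact binomial; scipy 1.17.1, Python 3.11.15) were adjusted by Benjamini-Hochberg over 14 tests at 0.05. Named were the 5 highest folds per class, every summit with a core within 50 bp, every gene with 2 summits, the floral list, ACR7, ACT7 and the 3 highest mock backgrounds. Other genes came from the lists or were chosen after their values were seen. The members and lists were chosen with earlier results of these data known. The 4 chloroplast peaks were left out.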

Additional observations from a re-analysis of the deposited data

How the results depend on the processing

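Of 89 alternatives, 69 kept direction and side of the threshold (or, for shares without a test, moved little); 83 were planned and 6 were chosen after seeing the data. The excess of cores over the left window passed under all its alternatives, from 9.39 percentage points (core within 50 bp) to 21.2 (up to 1 mismatch). The share of summits inside genes was 15.1% without 100 bp at gene edges. The raised mock background no longer passed with peaks of −log10 q 20 or more (7.24 percentage points), at 25 reads (4.51) or at 30 reads (3.81), nor did grouping at that q-value (-6.39) or within 1 kb (-3.27).

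The other changes turned the sign of differences that passed in no setting. For the core against other summits these were -1.44 (q-value at least 20), -0.762 (1 summit per 3 kb) and -0.0753 (within 50 bp). For high fold it was 2.01 with dex reads in place of fold (-9.12, still not past the threshold, with 1 summit per 3 kb, itself kept by fold), and for width 0.712 without gene edges. By class, the core gave 1.19 in 5′ UTRs and -4.48 in 3′ UTRs within 50 bp, and 9.36 in introns and -9.36 in 3′ UTRs with 1 mismatch. High fold gave 7.01 (q-value) and 0.611 (dex reads) in coding exons, and -2.22 (q-value), -3.61 (dex reads) and -0.288 (longest coding transcript) in introns. The cause was not tested.

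No paired analysis was possible because the libraries had been pooled into 1 peak list, and likewise no replicate was left out.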

Other observations

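Some small families had several members with a summit inside, in pairs noticed after the values were seen and not tested, beside 0.864% of all protein-coding genes (237 of 27444). Of 12 genes with the symbol of an abscisic acid receptor, 2 held a summit, PYL6 (5′ UTR, fold 8.56, 227 dex reads) and PYL5 (coding exon, fold 4.94, 212 dex reads over 33 mock reads). Of 5 genes with an arogenate dehydratase symbol, 2 did, ADT4 (fold 5.76) and ADT5 (fold 4.04), both in a coding exon. Of 36 GRAS genes, 3 did, all in a 5′ UTR: SCL1 (fold 4.58), SCL3 (3.91) and the DELLA gene RGL3 (3.21). In the SAC51 family of 4 bHLH genes, 2 did, SAC51 and AT5G09460.

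Other developmental regulators held a summit without an exact core nearby. BB, which encodes the ubiquitin ligase BIG BROTHER that limits organ size, had a 5′ UTR summit with a fold of 7.11 on 170 dex reads. KAN2, a gene of abaxial organ identity, had a 3′ UTR summit with a fold of 3.83 (chromosome 1, 11626346), a base that is intronic in the transcript with the longest coding sequence.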
